A study of Homo sapiens with 6 samples.

Results

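The MYC, MAX and MXD network was described in LM3 cells with and without knockdown of ZNF706. It comprises 10 genes taken by name from the deposited gene table of 33007 genes. These are the activators MYC and MYCN, their partner MAX, the repressors MXD1, MXI1, MXD3, MXD4 and MNT, and MLX with its partner MLXIP. Each of the 10 symbols stood on a single row of the table, and 9 of them had enough counts to be tested. LM3 is an established human hepatocellular carcinoma (HCC) cell line. RNA was sequenced from 3 samples carrying the vector and 3 with ZNF706 stably knocked down, a gene for a zinc finger protein. All 6 samples are labelled as wild type in genotype, and the stable knockdown was made with a hairpin in the lentiviral pLKO.1 vector followed by puromycin selection. The sources used here do not give the hairpin or say whether the samples of a group were grown as separate cultures, so p-values measure only the spread between these samples, which may be technical.

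Sequencing depth in total counts was 62684076, 64713764 and 63054445 for the controls and 68548419, 65861994 and 69057423 for the knockdown, which was deeper in every sample. The labelled cell type was checked against marker genes. The keratins KRT8 and KRT18, which mark simple epithelia and hepatocytes, were abundant, with KRT18 at a mean of 266 FPKM (counts scaled to gene length and library size) over the 6 samples. The 5 epithelial markers summed to 453, 459 and 480 FPKM in the control and 452, 467 and 469 FPKM in the knockdown samples, and these sums overlapped. Of the 5, 4 were above 0 with their median at 0.59 on the log2 scale, and none was called in the edgeR fit used here (3 had an unadjusted p below 0.05). The DESeq2 Wald test called KRT19 higher and KRT18 lower, and 5 other edgeR fits (stricter filter, library-size scaling, replicate block, GC or length trend removed) called 1 or 2 of the 5. KRT19 was at 0.83 (edgeR adjusted p = 0.054) and CDH1, the E-cadherin gene, at 0.59 (edgeR adjusted p = 0.072), both below 1 FPKM in every sample. Both were higher by the study's own criteria, applied here to the edgeR fit. EPCAM was at most 0.40 FPKM. Hepatocyte and HCC markers were low. The 10 of them, led by ALB at a mean of 2.17 FPKM, summed to 3.71, 8.45 and 10.1 FPKM in the control samples and 4.30, 4.45 and 2.77 FPKM in the knockdown samples. Of the 9 hepatocyte markers tested, 2 were called lower and none higher, all 9 were below 0 (8 with scaling by library size alone) with their median at -0.70 on the log2 scale, and their part in the results below was not tested. Of the leukocyte markers in the table, PTPRC, which is common to leukocytes, was at most 0.01 FPKM, while CD68, which cells outside the blood lineage can also express, made up most of a sum that went from 11.0, 11.0 and 11.6 FPKM in the control to 17.0, 18.5 and 17.1 FPKM in the knockdown samples. The endothelial list summed to 1.79, 1.91 and 2.06 FPKM in the control and 1.43, 1.61 and 1.69 FPKM in the knockdown samples. CDH5, its most abundant gene, was called lower. The fibroblast list, mostly COL1A1, summed to 8.72, 7.90 and 8.23 FPKM in the control and 9.77, 9.93 and 9.61 FPKM in the knockdown samples, without overlap. Of its 4 genes tested, COL1A1 and PDGFRB were called higher. CD68 was called higher too, and the part of these markers in the results below was not tested.

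Proteins of this network bind DNA only as dimers, and the partner decides the outcome. MYC or MYCN with MAX activates genes of growth, ribosome building and metabolism from a short palindrome, CACGTG, called the E-box. The MXD proteins, MXI1 and MNT compete for MAX at the same E-boxes and bring in SIN3 and histone deacetylases, which repress. MLX is a second hub that pairs with MLXIP (also called MondoA) and with MLXIPL (ChREBP) to switch on genes in response to glucose, and it can pair with some of the MXD repressors too. In liver cancer, MYC lies in a region of chromosome arm 8q that is often gained.

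Network genes can carry E-boxes themselves. Of the 9 members with a promoter in the RefSeq table for build GRCh38.p14 (250 bases before to 50 after each start), 3 had a CACGTG, namely MLX, MNT and MXD4. MYC had no entry. The motif reads the same on both strands. Among the 11360 tested genes with a promoter there, 12.4% had it in at least 1 of their promoters. The 250 bases before the start are shown for these 3 members, 5′ to 3′ on the strand of the gene, with the E-box in capitals, because MLX and MNT are among the members that differed most between the groups. They lie at chr17:42566850-42567099 on the plus strand for MLX, chr17:2401061-2401310 on the minus strand for MNT and chr4:2262110-2262359 on the minus strand for MXD4.
MLX: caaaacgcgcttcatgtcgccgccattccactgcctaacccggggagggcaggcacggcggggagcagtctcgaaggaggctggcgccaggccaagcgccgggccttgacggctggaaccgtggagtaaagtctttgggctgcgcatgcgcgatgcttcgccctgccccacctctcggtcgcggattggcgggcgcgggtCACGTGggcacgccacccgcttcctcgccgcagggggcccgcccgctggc
MNT: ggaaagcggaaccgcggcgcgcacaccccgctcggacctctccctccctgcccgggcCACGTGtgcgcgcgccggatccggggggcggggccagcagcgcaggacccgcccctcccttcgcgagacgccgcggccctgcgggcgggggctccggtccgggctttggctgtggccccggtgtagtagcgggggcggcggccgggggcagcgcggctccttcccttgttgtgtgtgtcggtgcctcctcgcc
MXD4: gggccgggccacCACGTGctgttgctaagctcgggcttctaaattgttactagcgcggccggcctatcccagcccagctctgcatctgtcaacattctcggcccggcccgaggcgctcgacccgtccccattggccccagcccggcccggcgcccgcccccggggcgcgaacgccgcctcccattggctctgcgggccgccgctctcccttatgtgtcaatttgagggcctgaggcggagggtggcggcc
The first base of the E-box lay 50 bases before the start of MLX, 193 before that of MNT and 238 before that of MXD4. The promoters of MAX, MXD1, MXI1, MXD3, MLXIP and MYCN did not have these 6 letters in the window, which says nothing of a factor. A match is only a run of letters and was not tested for binding.

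The knockdown was present in the libraries. Reads counted on ZNF706 numbered 3211, 3504 and 3357 for the controls and 2350, 2068 and 2298 for the knockdown. The log2 fold change was -0.73 (standard error 0.050, edgeR adjusted p = 3.7e-05).

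In ZNF706 knockdown cells MLX, MAX, MXD1 and MYC were lower and MNT was higher. The change was -22.9% for MLX, -19.3% for MAX, -14.1% for MXD1, -9.57% for MYC and 26.4% for MNT. In bulk RNA, fewer cells of a kind and less RNA per cell cannot be told apart. Unless another tool is named, adjusted p values come from edgeR's quasi-likelihood test. These 5 of the 9 tested members had a Benjamini-Hochberg adjusted p below 0.05 over all 18390 genes tested. Of all genes tested, 22.8% were called by this rule, 10.4% higher and 12.4% lower. The balance of these calls depended on scaling, with 1906 genes higher and 2286 lower here, 2741 higher and 1518 lower with scaling by library size alone, and 2279 higher and 1539 lower in a limma fit of FPKM values. MAX, MLX and MNT were called in the same direction under all 3. MYC and MXD1 were called only under the first. The criteria of the study, which set p at 0.05 and the size of the log2 fold change at 0.3 or more, were met by MLX and MAX on the lower side and MNT on the higher side. They were applied here to the edgeR fit with its unadjusted p, whereas the paper applied them to DESeq2 results. By these criteria 9.61% of all genes were higher and 5.88% lower. The groups did not overlap in CPM for 6 of the 9 members and for 39.4% of all genes tested. With a stricter filter (mean count of 50), 2104 genes were called higher and 2351 lower of 14132, a larger share than the 22.8% above. The members and the lists below were not matched to all genes by count. Whether their shares exceed those of genes with similar counts was not tested.

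**Figure D1:**
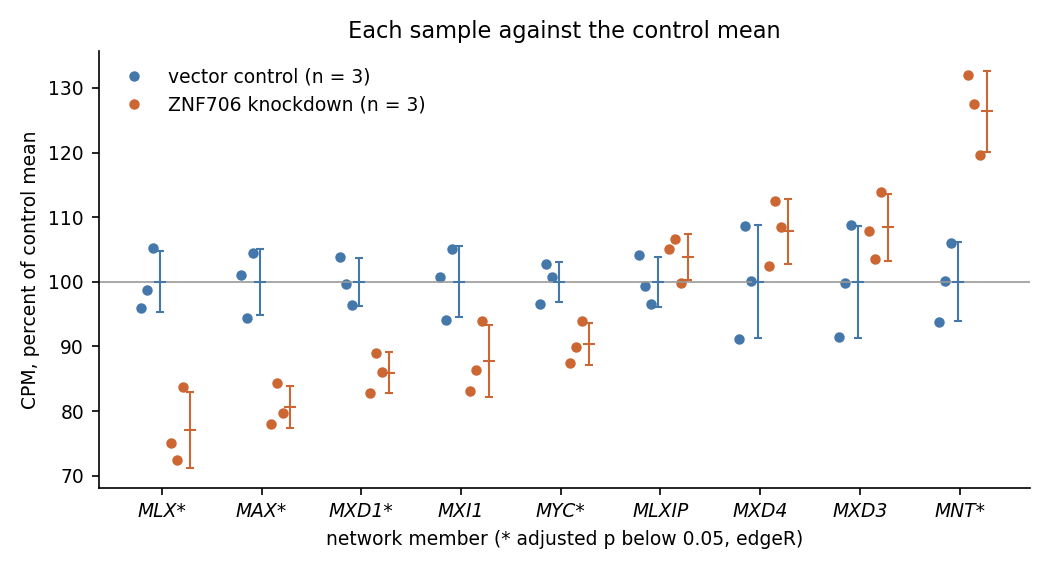
CPM (counts scaled to library size, with TMM factors) of the 9 tested members in every sample, as a percent of the gene's control mean, on a linear axis that does not start at 0. Points are samples, bars are the mean and SD of 3 samples, and a star marks an adjusted p below 0.05. The knockdown samples of MLX, MAX, MXD1, MXI1 and MYC all lie below the control samples and those of MNT all lie above, while the groups of MLXIP, MXD4 and MXD3 overlap.

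MYC (ENSG00000136997, chromosome 8, 127735434 to 127741434, GRCh38) is the activator of the network and was by far its most abundant transcript. It had 17404, 19006 and 17994 counts with the vector and 17866, 17550 and 19127 after knockdown, so raw counts overlapped. Scaled by TMM these were 281, 299 and 293 CPM in the control and 255, 262 and 273 CPM in the knockdown samples. All 3 scaled knockdown values lay below the lowest control value. The mean was 291 ± 9.06 CPM in the control group and 263 ± 9.39 CPM after knockdown (SD, n = 3 in each). The log2 fold change was -0.15 (standard error 0.038, edgeR adjusted p = 0.023). The call was lost when single samples were left out, with edgeR adjusted p values of 0.090 without control replicate 2, 0.071 without control replicate 3, 0.074 without knockdown replicate 1 and 0.093 without knockdown replicate 2. With library-size scaling the log2 fold change was -0.091 (edgeR adjusted p = 0.10).

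MYCN, the paralog of MYC best known from neuroblastoma, had 0, 0 and 4 counts with the vector and 0, 0 and 0 after knockdown. It was not detectable in 5 of the 6 libraries and was left out of the test. A count of 0 allows up to 3 counts, which is between 0.043 and 0.048 CPM in these libraries and covers counting error only.

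MAX (ENSG00000125952, chromosome 14, 65006174 to 65102695, minus strand) is the partner that MYC and the MXD proteins share. It had 49.8, 46.5 and 51.5 CPM in the control samples and 38.4, 41.5 and 39.3 CPM in the knockdown samples. The highest knockdown sample lay below the lowest control sample. The means were 49.3 ± 2.52 and 39.7 ± 1.61 CPM (SD, n = 3 in each), and the log2 fold change was -0.31 (standard error 0.053, edgeR adjusted p = 0.0029). Leaving out each sample in turn gave -0.35 to -0.28. FNTB lies across MAX on the opposite strand, but the exons of the 2 genes do not overlap in GENCODE release 29. The exons of MAX share 184 bases with the noncoding AL139022 there, which had at most 9 counts in a sample.

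The repressors did not move together. MNT (ENSG00000070444, chromosome 17, 2384073 to 2401104, minus strand), a broadly expressed repressor that binds MAX, was the member that rose. It had 21.3, 22.7 and 24.0 CPM in the control samples and 30.0, 28.9 and 27.1 CPM in the knockdown samples, with no overlap between the groups. The means were 22.7 ± 1.38 and 28.7 ± 1.43 CPM (SD, n = 3 in each), and the log2 fold change was 0.34 (standard error 0.072, edgeR adjusted p = 0.0087). With each sample left out the log2 fold change ranged from 0.29 to 0.38, and the edgeR adjusted p stayed at or below 0.036.

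MXD1 (ENSG00000059728, chromosome 2, 69897688 to 69942942), a repressor known from differentiating cells, went the other way. It had 26.8, 25.7 and 24.9 CPM in the control samples and 21.3, 23.0 and 22.2 CPM in the knockdown samples, again without overlap. The log2 fold change was -0.22 (standard error 0.067, edgeR adjusted p = 0.042). This call was lost whichever sample was left out, with edgeR adjusted p values between 0.051 without control replicate 3 and 0.13 without knockdown replicate 1. In GENCODE release 29 the exons of MXD1 share 237 bases with SNRNP27 on the same strand, which was at -0.18 on the log2 scale (edgeR adjusted p = 0.046). How the authors' counting assigned reads in that stretch is not given in the sources used here.

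MXI1, a close relative of MXD1, had 21.5, 20.08 and 22.4 CPM in the control samples and 17.7, 18.4 and 20.03 CPM in the knockdown samples. The groups did not overlap, by a narrow margin between knockdown replicate 3 and control replicate 2, and the log2 fold change of -0.19 (standard error 0.080) came with an edgeR adjusted p of 0.13. MXD4 had 37.2, 44.4 and 40.9 CPM in the control and 41.8, 45.9 and 44.3 CPM in the knockdown samples. Its groups overlapped, and the log2 fold change was 0.11 (standard error 0.067, edgeR adjusted p = 0.30). With single samples left out, that of MXD4 ranged from 0.042 to 0.17. MXD3, which is linked to proliferating cells, had 12.3, 13.4 and 14.6 CPM in the control and 14.5, 13.9 and 15.3 CPM in the knockdown samples. Its groups overlapped too, with a log2 fold change of 0.12 (standard error 0.093, edgeR adjusted p = 0.42). For MXD3 the range with single samples left out was 0.052 to 0.18. MXD3 shares 1158 exon bases in GENCODE release 29 with PRELID1 on the opposite strand, which had 10428 counts or more in every sample against at most 1071 on MXD3 and a log2 fold change of 0.19. It also shares 926 exon bases with RAB24 on its own strand, which had a log2 fold change of -0.31. Since the counting is not stated to use strand, reads of MXD3 and PRELID1 cannot be told apart there.

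MLX (ENSG00000108788, chromosome 17, 42567068 to 42573239) is the hub of the glucose-sensing arm. It had 88.7, 91.3 and 97.2 CPM in the control samples and 69.3, 67.0 and 77.3 CPM in the knockdown samples. Knockdown replicate 3 was the highest of its group and still lay below every control sample. The means were 92.4 ± 4.39 and 71.2 ± 5.42 CPM (SD, n = 3 in each), with a log2 fold change of -0.38 (standard error 0.057, edgeR adjusted p = 0.0015). Leaving out each sample in turn gave -0.44 to -0.33. At its 3′ end MLX overlaps PSMC3IP, a gene of meiotic recombination on the opposite strand, with 770 of the 4259 exon bases of MLX shared in GENCODE release 29. PSMC3IP had 1896, 2116 and 1829 counts with the vector and 1504, 1391 and 1604 after knockdown. Its log2 fold change was -0.53 (edgeR adjusted p = 0.00086). Without strand, reads of MLX and PSMC3IP in the shared bases cannot be told apart.

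MLXIP, the partner of MLX that shuttles to the nucleus when glucose metabolites rise, had 123, 117 and 114 CPM in the control samples and 124, 126 and 118 CPM in the knockdown samples. The groups overlapped, and the log2 fold change was 0.054 (standard error 0.042, edgeR adjusted p = 0.41). Once each library's trend on transcript length was removed, a fit chosen after seeing the data, it was 0.14 (edgeR adjusted p = 0.019), and without the trend on GC content it was -0.0065.

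**Figure D2:**
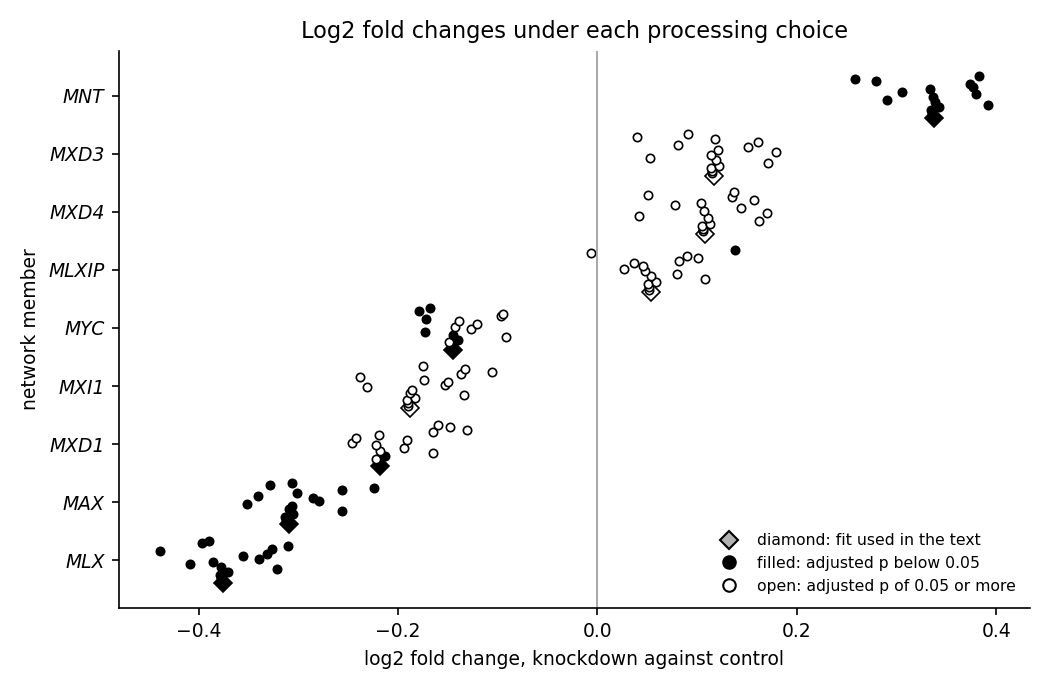
Log2 fold change (knockdown against control, horizontal axis) of the 9 tested members under the fit used in the text (diamond) and 16 alternatives (circles). Filled symbols have an adjusted p below 0.05. MLX and MAX stay filled left of 0 and MNT stays filled right of 0, while MYC and MXD1 are filled in part and MLXIP is filled in 1 alternative, the fit with the length trend removed.

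The members can be set side by side per length in the deposited FPKM values. In the control group MYC had 54.8 ± 1.45 FPKM, MLX 18.7 ± 0.73, MLXIP 7.34 ± 0.35 and MAX 6.78 ± 0.33 (SD, n = 3). MXD4 followed with 5.12 ± 0.43, MXD1 with 3.50 ± 0.17 and MXI1 with 3.11 ± 0.16 FPKM, and MNT and MXD3 were lowest with 2.24 ± 0.12 and 2.24 ± 0.18 FPKM. The sample ranges of neighbours in this order overlapped for MLXIP with MAX and for MNT with MXD3. In the knockdown group MXD4 (5.71 ± 0.27 FPKM) and MAX (5.66 ± 0.23 FPKM) overlapped, and MNT (2.94 ± 0.15 FPKM) overlapped with MXD1 (3.11 ± 0.12 FPKM) and MXI1 (2.82 ± 0.17 FPKM). MNT thus stood among the lowest repressors in the control group and level with MXD1 and MXI1 in the knockdown group.

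**Figure D3:**
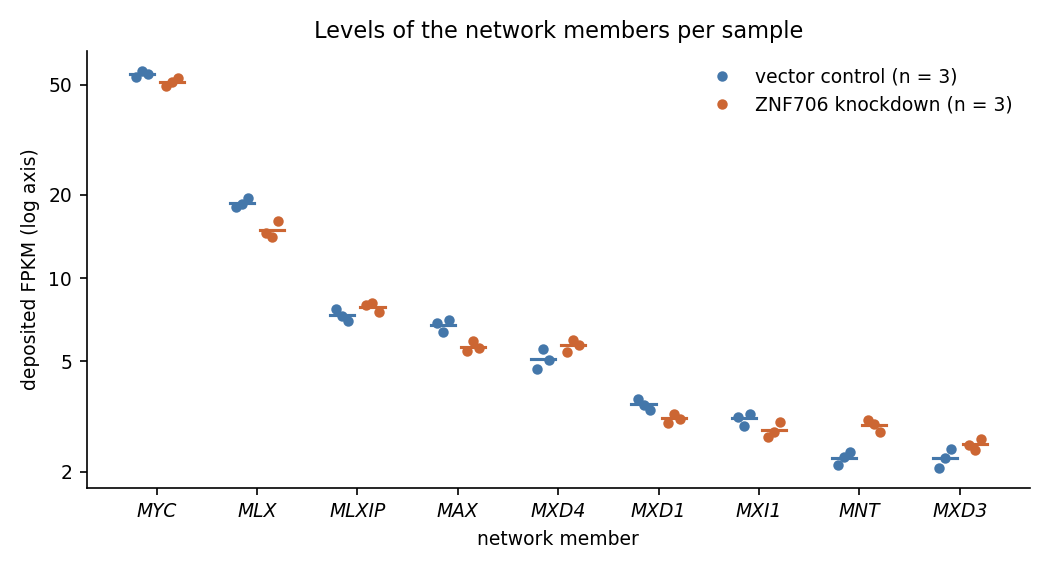
Deposited FPKM of the 9 members above the detection limit in every sample, on a log axis, with a line at the mean of the 3 samples of each group. MYC lies near 50 FPKM in both groups, and the repressors lie between 2.06 and 5.97 FPKM.

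Because these proteins compete for partners, the ratio of their transcripts within a sample is a natural summary, given here without a test. Transcript ratios are not protein ratios. Summed over MXD1, MXI1, MXD3, MXD4 and MNT, the repressors had 16.2 ± 0.42 FPKM in the control group and 17.1 ± 0.37 FPKM in the knockdown group (SD, n = 3 in each). Unlike a ratio within a sample, this sum depends on scaling, and FPKM is scaled to library size without TMM factors. Those factors were 0.988, 0.983 and 0.974 in the control and 1.02, 1.02 and 1.01 in the knockdown samples, which would make the rise smaller. MNT made up 13.8% ± 0.46 of the repressor sum in the control group and 17.2% ± 1.18 in the knockdown group, while MXD1 went from 21.6% ± 1.55 to 18.2% ± 0.36. The sum was 2.40 ± 0.16 times the FPKM of MAX in the control group and 3.02 ± 0.082 times in the knockdown group. No sample of one group lay in the range of the other for this ratio. MYC was 3.38 ± 0.047 times the repressor sum in the control group and 2.997 ± 0.071 times in the knockdown group, also without overlap. MYC over MAX was 8.10 ± 0.60 in the control group and 9.06 ± 0.45 in the knockdown group, and here the groups overlapped through control replicate 2 (8.79). MLX over MLXIP was 2.55 ± 0.22 in the control group and 1.898 ± 0.21 in the knockdown group, with no overlap.

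**Figure D4:**
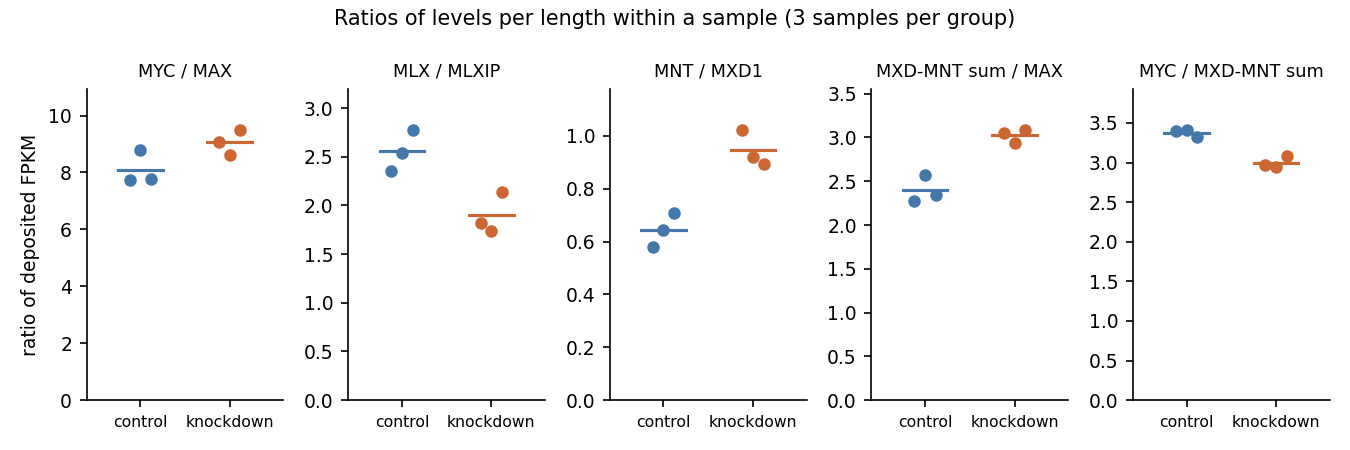
Ratios of deposited FPKM within each sample (points, 3 samples per group, line at the mean), with every axis starting at 0. The MXD-MNT sum adds MXD1, MXI1, MXD3, MXD4 and MNT. The groups overlap for MYC over MAX and not for the other 4 ratios.

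The genes whose scaled levels followed MLX and MAX most closely over the 6 samples were looked up among 9474 genes with a mean of at least 10 CPM. For MLX these were SERPINB1, ZCCHC8 and SLC15A4, with Pearson's r of 0.997, 0.996 and 0.995. For MAX they were LUC7L2, CRLF3 and TPD52L2, with r of 0.997, 0.993 and 0.993. These values are a description, since the 6 points share 2 groups and 6 libraries and the genes were picked as the highest of many.

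Other E-box factors and relatives outside the 10 members were also measured, a list of 13 genes that were all tested. BHLHE41, TFEB, MITF and BHLHE40 rose, and MLXIPL and TFE3 fell. Called genes were therefore 6 of 13, with 22.8% of all genes called and a list median log2 fold change of -0.03 against 0.0095 over all genes. With library-size scaling the list median was 0.02, against 0.063 over all genes, and with the GC trend removed it was 0.04, with 4 called higher and 4 lower. MLXIPL, the second partner of MLX and a glucose sensor of liver, was at 1.52 ± 0.16 CPM in the control group and 0.791 ± 0.15 CPM after knockdown (SD, n = 3 in each), and the log2 fold change was -0.94 (edgeR adjusted p = 0.028). At these low counts it was called only without knockdown replicate 3 among the fits that left out a sample, and its edgeR adjusted p reached 0.088 without control replicate 3. The lysosome and autophagy regulators of the MiT family split, with TFEB at 0.61 and MITF at 0.41 on the log2 scale and TFE3 at -0.39. BHLHE41 (0.76) and BHLHE40 (0.19), repressors of the circadian clock, were both higher.

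Of 18 coactivators and partners of MYC, 2 were called higher and 4 lower, which is 33.3% beside 22.8% of all genes, and the list median was 0.0026 on the log2 scale, 0.056 with library-size scaling and -0.048 with the GC trend removed. Library-size scaling and limma on log2(FPKM + 0.1) each called 3 higher and 2 lower. With the stricter filter (mean count of 50) 2 of the 18 were called higher and 4 lower, beside 2104 and 2351 of 14132 genes. Under that filter the list's share was near that of all genes. RUVBL1 (0.26) and RUVBL2 (0.17), ATPases of the TIP60 and INO80 complexes, rose. CCNT1 (-0.25), the cyclin of the elongation factor P-TEFb, fell, as did HCFC1 (-0.19) and BPTF (-0.16). RUVBL2 was not called without control replicate 1, control replicate 2, knockdown replicate 2 or knockdown replicate 3 (edgeR adjusted p at most 0.093). HCFC1 was not called without control replicate 3, knockdown replicate 2 or knockdown replicate 3 (up to 0.086), and BPTF was called only without knockdown replicate 1 (up to 0.16 in the others). Without knockdown replicate 2 the list had 3 calls.

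Of 12 corepressors that the MXD proteins and MNT recruit, 11 had a negative log2 fold change and 4 were called lower (33.3%, beside 12.4% of all genes), with none higher (median -0.10, while 8948 of the 18390 genes tested were below 0). With library-size scaling 9 of the 12 were below 0 and 2 were called lower, and with the length trend removed 7. The median was -0.049 with library-size scaling and -0.038 with the GC trend removed. ARID4B, a subunit of the SIN3 complex, fell most. It went from 69.9 ± 0.43 CPM to 52.9 ± 2.06 CPM (SD, n = 3 in each), and the log2 fold change was -0.40 (standard error 0.040, edgeR adjusted p = 0.00018). SUDS3 (-0.18), another SIN3 subunit, also fell. RBBP7 and HDAC2 were each at -0.11. RBBP7 was not called without control replicate 2, control replicate 3, knockdown replicate 1 or knockdown replicate 2 (edgeR adjusted p at most 0.16), and HDAC2 was not called without control replicate 1, control replicate 3, knockdown replicate 2 or knockdown replicate 3 (up to 0.11). HDAC2 was at 0.0022 once the trend on GC content was removed. Without control replicate 3 or without knockdown replicate 2 the list had 2 calls.

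Of 16 genes that control the stability of the MYC protein, 2 were called higher and 2 lower, and these 4 of 16 are a share near the 22.8% of all genes (median -0.07, or -0.011 with library-size scaling). SKP2 (-0.31), an F-box protein that ubiquitinates MYC, and CIP2A (-0.25), an inhibitor of the phosphatase PP2A that stabilizes MYC, fell. The ubiquitin ligases HUWE1 (0.19) and STUB1 (0.16) rose. STUB1 was not called without control replicate 1, control replicate 3 or knockdown replicate 3 (edgeR adjusted p at most 0.078).

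Known targets of MYC were described in 2 lists. Like the members and the other lists, they were chosen with earlier results of these data known. Their shares are therefore a description only. Of 30 ribosome biogenesis genes, 27 were below 0 on the log2 scale, as were 8948 of all 18390 genes. Of the 30, 12 or 40.0% were called lower, beside 12.4% of all genes, and none higher, with a median of -0.09. DKC1, the pseudouridine synthase of small nucleolar and telomerase RNAs, fell from 274 ± 6.80 to 226 ± 1.95 CPM (SD, n = 3 in each), and the log2 fold change was -0.28 (standard error 0.032, edgeR adjusted p = 0.00039). The nucleolar proteins NOP2 (-0.26), NOP16 (-0.26) and UTP20 (-0.21) followed, and UTP20 was not called without knockdown replicate 2 (edgeR adjusted p = 0.066). The range of log2 fold changes over the list was narrow, from -0.28 to 0.08. With library-size scaling 23 of these genes were below 0, 6 were called lower and 1 higher, and the median was -0.04. In limma on log2(FPKM + 0.1) 7 were called lower and 1 higher.

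The second list, of metabolic and growth targets, had 28 tested genes, of which 10 were called lower and 2 higher, or 42.9% beside 22.8% of all genes, with a median of -0.05 that turned to 0.0041 with library-size scaling. The lean to lower calls depended on scaling, with 8 higher and 8 lower under library-size scaling and 7 higher and 7 lower in limma on log2(FPKM + 0.1). PRPS2 (-0.33), which makes the ribose precursor of nucleotides, fell. PPRC1 (-0.22), a coactivator of mitochondrial genes, and CDC25A (-0.22), a phosphatase that drives the cell cycle, fell as well. The mitochondrial proteins PHB (0.18) and HSPD1 (0.14) rose, and PHB was called only without knockdown replicate 1 among the fits that left out a sample (edgeR adjusted p at most 0.11, without control replicate 1).

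Of 15 genes that MYC is known to repress, 4 were called higher and 3 lower, or 46.7% beside 22.8% of all genes. The median of 0.15 was 0.086 with a stricter filter (mean count of 50) and 0.093 with the GC trend removed. CDKN1C, a cyclin-dependent kinase inhibitor known as p57, rose from 16.1 ± 1.46 to 35.5 ± 0.73 CPM (SD, n = 3 in each), and the log2 fold change was 1.14 (standard error 0.077, edgeR adjusted p = 3.7e-05). The receptor PDGFRB (0.68), the kinase inhibitor CDKN2B (0.50) and the stress gene GADD45B (0.35) rose as well. BTG1 (-0.36), which restrains proliferation, SESN2 (-0.27), a stress sensor, and NDRG1 (-0.13) fell. SESN2 was not called without control replicate 2 or knockdown replicate 1 (edgeR adjusted p of 0.054 and 0.053), and NDRG1 was called only without control replicate 3 (up to 0.10 in the others).

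The targets of MLX and MLXIP were few. TXNIP, an inhibitor of glucose uptake, was at 0.02 on the log2 scale (edgeR adjusted p = 0.84), and ARRDC4, its relative, was at 0.08 (edgeR adjusted p = 0.51). KLF10, a transcription factor that responds to glucose and to TGF-beta, fell from 81.3 ± 1.74 to 62.3 ± 0.16 CPM (SD, n = 3 in each), at -0.38 (edgeR adjusted p = 0.00012). It was the only gene called of the 6 on the list, or 16.7% beside 22.8% of all genes. The DESeq2 Wald test and library-size scaling called 2 of the 6, and the fit with the GC trend removed called 3. The median was -0.015, or 0.04 with library-size scaling.

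**Figure D5:**
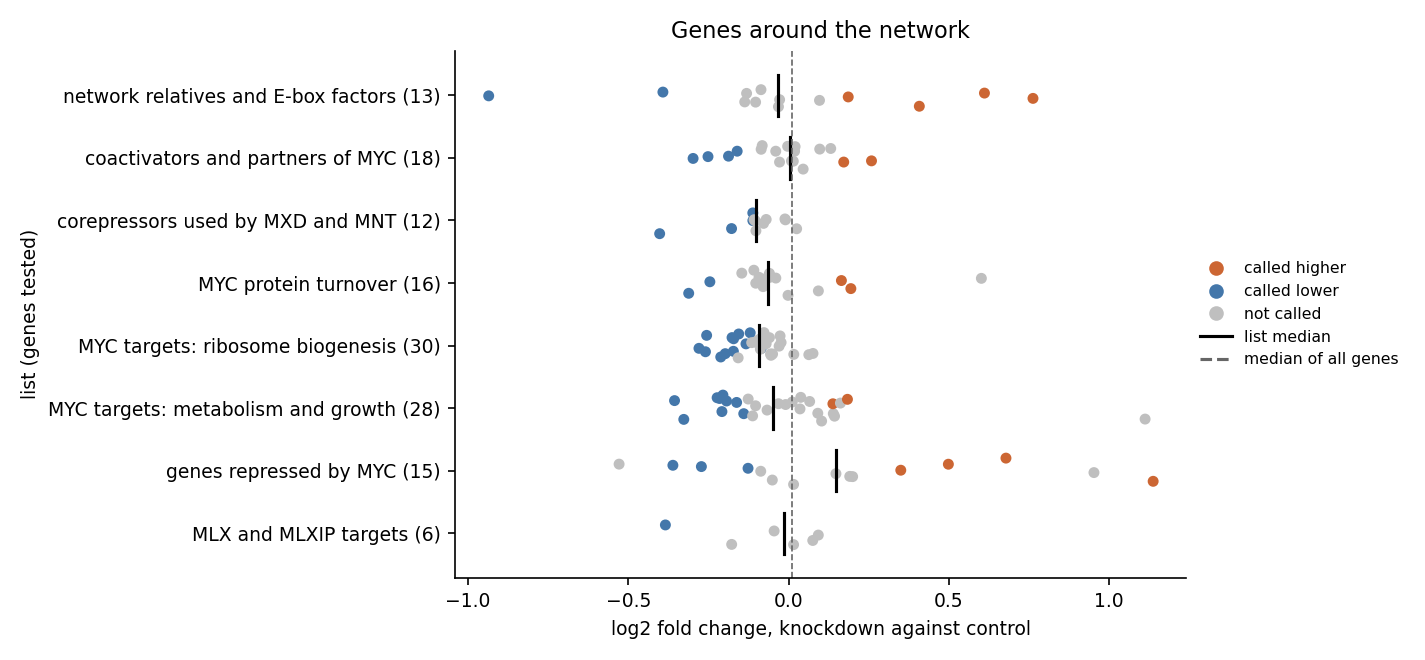
Log2 fold change of each tested gene in the 8 lists around the network, with the number tested in brackets. Orange and blue points had an adjusted p below 0.05, black bars are list medians and the dashed line is the median of all 18390 genes. The ribosome biogenesis targets lie in a narrow band mostly left of 0, with 27 of 30 genes there (23 with library-size scaling).

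E-boxes were frequent in the promoters of the ribosome biogenesis and metabolic target lists. These genes were listed as known targets of MYC, which acts from the E-box, so this share is not independent of how they were chosen. Of 23 ribosome biogenesis targets with a promoter in RefSeq, 47.8% had a CACGTG, and so had 47.8% of 23 metabolic targets, beside 12.4% of all tested genes. The share was 16.7% of 12 genes repressed by MYC and 40.0% of 5 targets of MLX and MLXIP. Over all tested genes with a promoter, the 1408 with a CACGTG had a median log2 fold change of -0.02, and 13.5% were called higher and 17.9% lower. The 9952 without it had a median of -0.0013, with 12.1% called higher and 15.5% lower. The outer quartiles were -0.16 and 0.16 for genes with the motif and -0.15 and 0.19 for genes without.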

How the data were processed

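LM3 cells were profiled by RNA-seq in 3 vector control and 3 ZNF706 knockdown samples. The authors mapped reads with HISAT2 and deposited whole-number counts per gene, without normalization, and FPKM values per gene. The submitters' notes name cutadapt 1.9, FastQC and GRCh38. The counting program, strand setting and annotation release are not given in the sources used here. Groups were taken from the labels.

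Low counts were removed by filterByExpr and TMM factors computed, and knockdown was set against control by the quasi-likelihood test (glmQLFit, glmQLFTest) in edgeR 4.0.16 under R 4.3.3. Adjustment followed Benjamini and Hochberg and covered 18390 genes. Standard errors are the log2 fold change over the root of F. The smallest p that exact permutation allows here is 0.1. The fit was also tested on simulated data. It called 33 of 99 genes changed by 0.3 on the log2 scale, 67 of 97 changed by 1 and 10 of 17866 unchanged genes. Changes of about 0.3 can therefore be missed. Alternatives were DESeq2 1.42.0, limma 3.58.1 on log2(FPKM + 0.1) or log2(FPKM + 1) for genes with a mean of at least 1 FPKM, other scalings and filters, a replicate block and each sample left out. Trends on GC content and length (GENCODE release 29) were removed in fits added after seeing the data.

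The members and lists were chosen with earlier results of these data known. Named were all members, ZNF706, TXNIP, ARRDC4, up to 4 called genes per direction and list, and the 3 genes most like MLX and MAX. Some genes that this rule names are not reported here. Genes that overlap members were named for their position, and markers from their fixed lists.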

Additional observations from a re-analysis of the deposited data

How the results depend on the processing

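MAX, MLX and MNT kept their direction and an adjusted p below 0.05 under all 16 alternatives. MYC was not past the threshold under 8 of them and MXD1 under 13. Without a filter on low counts 3 members were called, with MYC at -0.15 (adjusted p = 0.055 from edgeR) and MXD1 at -0.22 (0.051), and 3 coactivators. With library size alone 3 members, 2 corepressors, 7 ribosome biogenesis targets and 2 targets of MLX and MLXIP were called, with MYC at -0.091 and MXD1 at -0.17. In limma on log2(FPKM + 0.1) 3 members and 2 corepressors were called, with MYC at -0.097 and MXD1 at -0.17, and on log2(FPKM + 1) MYC was at -0.095 and MXD1 at -0.13. With the GC trend removed MXD1 was at -0.15 and MLXIP at -0.0065, 2 turnover genes and 3 targets of MLX and MLXIP were called, and HDAC2 was at 0.0022. With the length trend removed MXD1 was at -0.16, MLXIP at 0.14 and 2 corepressors were called. The DESeq2 Wald test called 2 targets of MLX and MLXIP. By the criteria of the study, applied to the edgeR fit and not to DESeq2 results, 3 members and 2848 genes in all were called. The cause of these shifts was not tested.

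With each sample left out, 3 to 4 members, 2648 to 3424 of all genes, 3 to 6 coactivators and 2 to 3 corepressors were called, with MYC between -0.17 and -0.12 and MXD1 between -0.25 and -0.19. TXNIP ranged from -0.026 (without control replicate 3) to 0.035, and ARRDC4 from 0.019 to 0.11. Same-numbered samples did not deviate together (r of 0.036, -0.039 and -0.021), so no pairing by number was seen. With 3 samples per group, a weak pairing cannot be told from none. With the replicate block MXD1 was at -0.22 (adjusted p = 0.057 from edgeR), 4 members and 4361 genes in all were called. The block changed no other member's call. Depth limited the reading of MYCN, which had no count in 5 libraries.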
